A study of Homo sapiens with 4 samples.

Results

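ChIP-seq peaks of 3 chromatin-associated proteins were examined at 9 genes of insulin signalling and hepatic glucose output: INSR, IRS1, IRS2, FOXO1, FOXO3, G6PC, PCK1, IGFBP1 and TXNIP. A peak was a member if it overlapped one of these genes, or the 10 kb on either side of it, by at least 1 bp, with gene positions given in hg19 to the kb, so that the side of the start on which a summit within 1 kb of it lies is not known. By this rule 40 of the 46380 deposited peaks were members: 26 of 29441 SMRC1 peaks, 11 of 13643 NFIC peaks and 3 of 3296 SATB1 peaks. The rule used gene positions and no measured value. The 9 windows add up to 0.734 Mb.

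The chromatin came from HepG2, a long-established line grown from a human liver tumour, fixed with 1% formaldehyde for 10 min and given no other treatment in the labels. Each antibody, against SMRC1, SATB1 or NFIC, had 1 library. An input library is also labelled, and no file of it was analysed here. There were thus no replicates: counts, shares and their exact Clopper-Pearson 95% intervals describe these libraries, the intervals cover counting error only, and no difference between antibodies was tested. The files hold peaks and no expression, so neither the identity of the cells nor the activity of the 9 genes was measured.

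Insulin binds the receptor tyrosine kinase encoded by INSR, which phosphorylates the adaptor proteins IRS1 and IRS2, and these pass the signal to PI3-kinase and AKT. AKT phosphorylates the forkhead factors FOXO1 and FOXO3 and keeps them out of the nucleus. In the fasted liver nuclear FOXO1 raises transcription of G6PC (glucose-6-phosphatase), PCK1 (phosphoenolpyruvate carboxykinase) and IGFBP1 (a secreted binding protein of insulin-like growth factors), and TXNIP, an inhibitor of thioredoxin and of glucose uptake, responds to glucose. SMRC1 is a database name of SMARCC1 (BAF155), a scaffold subunit of SWI/SNF remodellers, which slide or evict nucleosomes. NFIC is a nuclear factor I protein that binds the half-site TTGGC, and SATB1 binds AT-rich DNA and tethers chromatin loops.

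The start regions that the results turn on are shown as the 250 bases before the RefSeq start in GRCh38.p14, read 5′ to 3′ along the gene. The peaks are in hg19, so they are set beside these sequences only through the gene start, and coordinates in the sequence lines are GRCh38. Within 2 kb of the start IRS1 carried peaks of all 3 proteins, TXNIP of NFIC and SMRC1, and FOXO3 of SMRC1 and SATB1. IRS2 and G6PC had no peak there. At FOXO3 the summits of the site shared by SMRC1 and SATB1 were 1.41 and 1.98 kb before the rounded start. The 250 bases do not reach them. Capitals mark exact matches to the NFI half-site (TTGGC, or GCCAA on the other strand), a FOXO element (GTAAACA or TGTTTAC) or 1 form of the core of insulin response elements (TGTTTTG or CAAAACA). Other forms were not read, so lower case does not show that an element is absent, at G6PC or elsewhere. TXNIP runs on the plus strand in hg19 and on the minus strand in GRCh38.
IRS1, chr2:226799821-226800070, minus strand: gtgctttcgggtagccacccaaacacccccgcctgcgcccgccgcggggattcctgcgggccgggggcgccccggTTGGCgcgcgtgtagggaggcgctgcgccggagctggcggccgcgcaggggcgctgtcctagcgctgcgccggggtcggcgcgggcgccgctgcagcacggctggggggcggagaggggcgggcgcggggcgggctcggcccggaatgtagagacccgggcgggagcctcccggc
TXNIP, chr1:145996580-145996829, minus strand: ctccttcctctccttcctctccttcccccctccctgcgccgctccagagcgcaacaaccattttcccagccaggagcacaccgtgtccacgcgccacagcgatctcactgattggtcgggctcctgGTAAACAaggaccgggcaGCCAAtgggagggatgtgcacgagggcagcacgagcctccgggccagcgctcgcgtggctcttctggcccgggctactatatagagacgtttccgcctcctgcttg
FOXO3, chr6:108559575-108559824, plus strand: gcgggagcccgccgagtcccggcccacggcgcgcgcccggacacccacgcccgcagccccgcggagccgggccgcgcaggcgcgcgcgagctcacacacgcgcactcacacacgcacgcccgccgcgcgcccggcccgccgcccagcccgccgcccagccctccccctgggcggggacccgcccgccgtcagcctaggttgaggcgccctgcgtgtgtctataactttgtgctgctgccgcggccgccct
IRS2, chr13:109786584-109786833, minus strand: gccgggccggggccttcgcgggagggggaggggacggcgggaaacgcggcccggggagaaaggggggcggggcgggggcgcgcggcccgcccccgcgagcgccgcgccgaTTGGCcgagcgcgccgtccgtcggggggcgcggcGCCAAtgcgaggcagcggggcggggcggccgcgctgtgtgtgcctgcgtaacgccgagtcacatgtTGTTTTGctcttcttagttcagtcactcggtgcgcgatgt
G6PC, chr17:42900549-42900798, plus strand: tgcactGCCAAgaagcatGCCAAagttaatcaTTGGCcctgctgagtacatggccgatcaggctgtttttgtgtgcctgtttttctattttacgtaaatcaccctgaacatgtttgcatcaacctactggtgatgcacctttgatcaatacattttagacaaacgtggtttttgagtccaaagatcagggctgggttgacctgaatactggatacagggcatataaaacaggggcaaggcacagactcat

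RefSeq starts were found for 7 of the 9 genes, and PCK1 and IGFBP1 had no entry. The IRS1 sequence held 1 NFI half-site, 175 bases before the start. The TXNIP sequence held 1 half-site (106 bases before the start) and 1 FOXO element (124 bases before it). None of the 3 motifs was read in the FOXO3 sequence, which does not reach the summits of the site shared by SMRC1 and SATB1. IRS2, with no peak in any list, held 2 half-sites and 1 insulin response core 40 bases before the start, and G6PC 3 half-sites. Over 35114 RefSeq start sequences of the same length, 40.8% held the half-site on either strand, 2.98% the FOXO element and 4.3% the insulin response core. Half-sites thus stood both in starts with an NFIC peak and in starts without one. G+C made up 80.8% of the bases at IRS1, 80.4% at FOXO3, 76.4% at IRS2, 63.6% at TXNIP and 44% at G6PC, against a median of 58% over all starts.

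**Figure D1:**
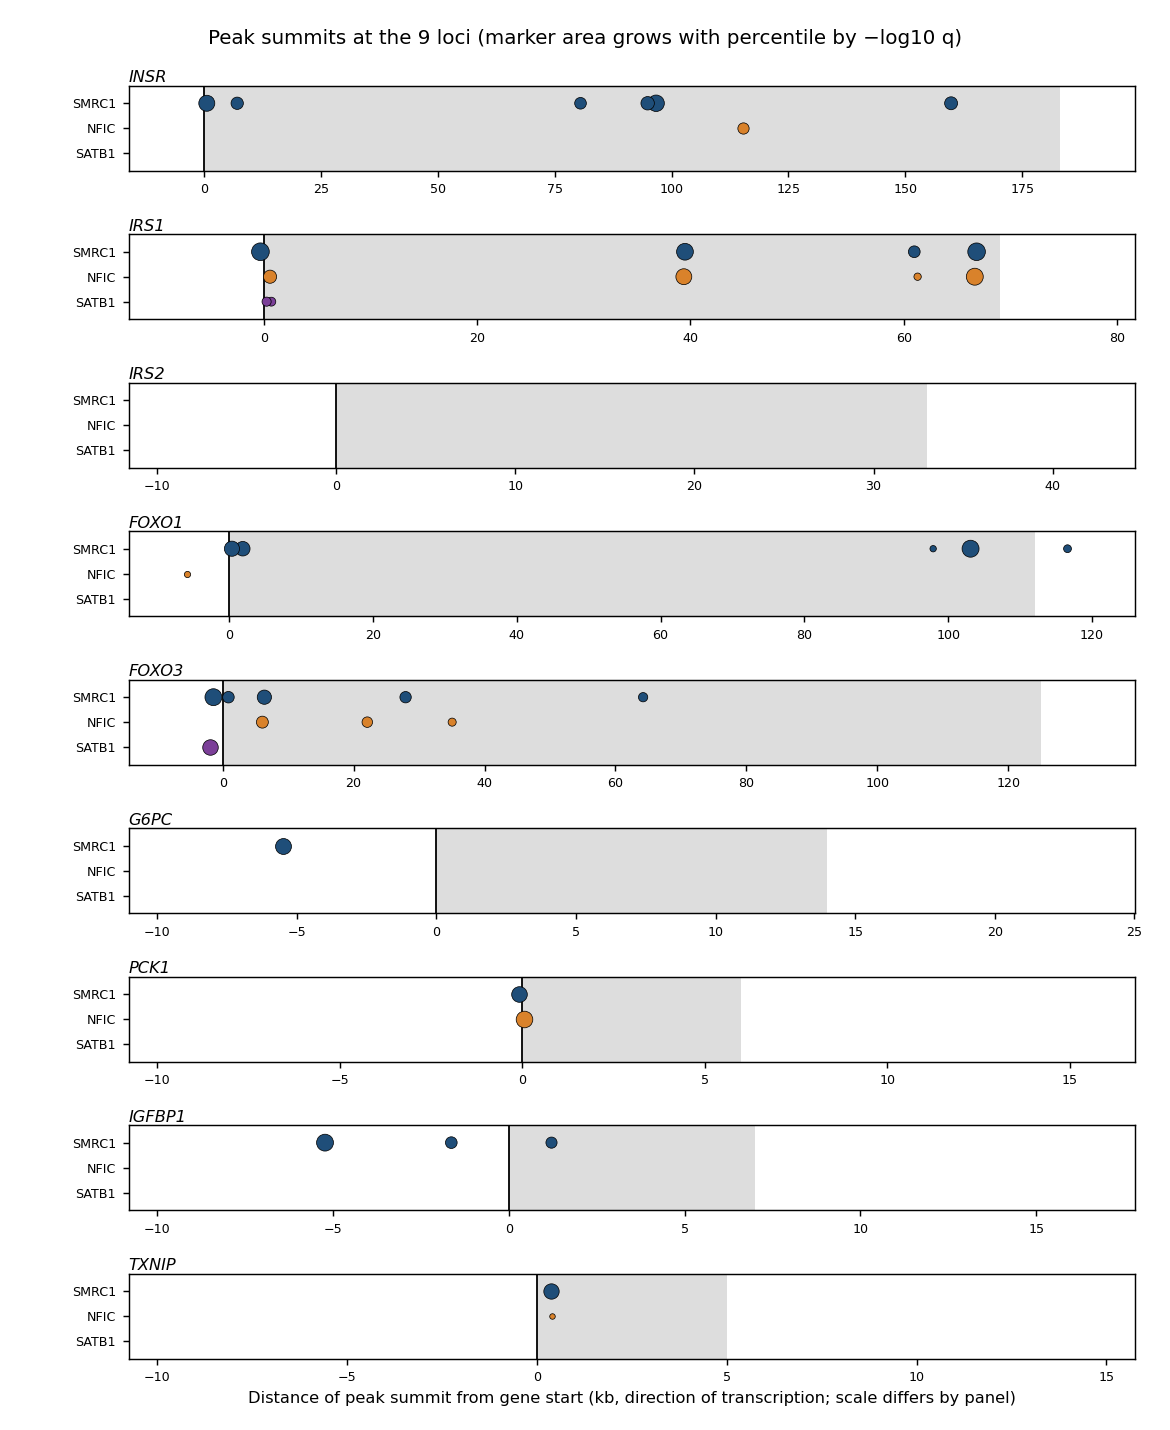
Position of every peak summit at the 9 loci, in kb from the gene start along the direction of transcription, with 1 panel per gene and 1 line per antibody. Grey marks the gene, the vertical line its start, the horizontal scale differs between panels, and larger markers are peaks of higher percentile by −log10 q within their own list; IRS1 shows all 3 colours at its start, and IRS2 is empty.

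SMRC1 peaks lay at 8 of the 9 loci, NFIC peaks at 6 and SATB1 peaks at 2. Of genome windows of 25 kb, the shortest locus, 16.3% held an SMRC1 peak, 9.38% an NFIC peak and 2.43% a SATB1 peak. At 203 kb, the longest locus, the shares were 49.9%, 40.1% and 15.3%. The IRS1 window held the most, with 10 peaks over the 3 lists, followed by FOXO3 with 9, INSR with 7 and FOXO1 with 6. IGFBP1 had 3 peaks, all of SMRC1, PCK1 and TXNIP had 2 each, G6PC had 1 and IRS2 had 0. Per Mb of window the loci carried 35.4 SMRC1 peaks against 9.51 over the whole genome, a ratio of 3.72 (95% Poisson interval 2.43 to 5.46). For NFIC the ratio was 3.40 (1.698 to 6.08) and for SATB1 3.84 (0.792 to 11.2). These intervals treat peaks as independent, but peaks cluster in the genome. Of genome windows of 203 kb, 50.1% held no SMRC1 peak while the fullest held 23. The intervals leave this clustering out and are therefore too narrow. Against light-staining chromosome bands, which are rich in genes, the ratios were 2.68, 2.45 and 2.51. Windows drawn around genes were here set against sequence with and without genes, and the part of gene density in these ratios was not tested.

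The receptor gene INSR, on chromosome 19, was a long locus with scattered SMRC1 peaks. It held 6 of them in 203 kb, and 12.1% of genome windows of that length held at least as many (17.8% in light-staining bands). The peak at its start (chromosome 19, 7293365 to 7294829, summit 0.611 kb from the rounded start) had a deposited fold over background of 4.56, a −log10 q of 18.4 and 75 ChIP fragments at its summit over a control background of 12. For SMRC1, fragments here and below are counts in the ChIP library, and background is in control fragments. That library was 1.29 times as deep as the control. SMRC1 fragments are therefore not on the scale of the background or of NFIC fragments, and the fold takes the depth into account. The highest-ranked peak was intragenic, 96.7 kb from the start (7196899 to 7198583), with a fold of 5.19, a −log10 q of 22.3 and 79 fragments over 11. These 2 peaks stood at the 78.3rd and 83.4th percentile of the SMRC1 list by −log10 q, and the other 4 between the 37.5th and 52.5th. The only NFIC peak at INSR (7179497 to 7179970) lay 115 kb inside the gene with 16 fragments over a background of 1.85, and its nearest SMRC1 summit was 18560 bp away. No SATB1 peak was listed there.

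IRS1, the adaptor that couples the receptor to PI3-kinase, was the locus where the 3 lists met. At its start on chromosome 2 a broad SMRC1 peak of 2509 bp (227663960 to 227666468) had a fold of 7.23, a −log10 q of 58.7 and 157 fragments over a background of 16, at the 97.6th percentile of its list. Inside that interval lay 1 NFIC peak (227664262 to 227664643; fold 3.74, −log10 q 9.34, 41 fragments over 10.2) and 2 SATB1 peaks. The SATB1 peaks (227664045 to 227664511 and 227664579 to 227664973) were weak, with folds of 2.82 and 2.64, −log10 q of 3.32 and 3.43, and 29 and 34 fragments over 9.65 and 12.3. These 3 summits were 579 to 1021 bp from the SMRC1 summit, on the side towards the gene. All 4 lay within 1 kb of the rounded start, so which of them are inside the gene is not determined. It was the only SMRC1 peak at the 9 loci with peaks of both other proteins, 3.85% of 26 against 3.02% of the whole SMRC1 list.

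Near the other end of IRS1, where transcription stops, stood a further peak pair. By −log10 q, SMRC1 ranked there about as high as at the start (96.4th percentile) and NFIC higher (88.9th against 50.2nd). The SMRC1 peak (227597334 to 227598767) was 2.17 kb from the annotated gene end and had 163 fragments over a background of 21, a fold of 5.80 and a −log10 q of 50.5. The NFIC peak in it (227598028 to 227598726) had 92 fragments over 16.9, a fold of 5.15 and a −log10 q of 32.4. Its summit was 169 bp from that of SMRC1. By −log10 q it was the highest-ranked NFIC peak of the 9 loci. By fold it stood at the 55.2nd percentile of its list, below the NFIC peak of PCK1 at the 87.3rd. A further pair inside the gene, 39.4 kb and 39.5 kb from the start, had 60 fragments for NFIC and 92 for SMRC1, with summits 107 bp apart. By fold the NFIC peak of this pair stood at the 46.0th percentile. The remaining pair, about 61 kb from the start, was weaker in both lists (−log10 q of 3.83 and 6.72). Every IRS1 peak of NFIC thus overlapped one of SMRC1, 4 of 4. As many as 4 NFIC peaks occurred in 1.29% of genome windows of 89 kb, and 4 SMRC1 peaks in 7.56%. Among those in light-staining bands the shares were 2.03% and 11%. In the GRCh38 annotation the gene RHBDD1 also lies within 10 kb of IRS1, so these peaks are named by position and not assigned to a gene.

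IRS2, the other adaptor and a FOXO target in liver, had no peak of any list in its 53 kb window on chromosome 13. Genome windows of that length without a peak were common: 73.6% held no SMRC1 peak, 83% no NFIC peak and 95.2% no SATB1 peak. In light-staining bands the shares were 64.5%, 76.8% and 92.7%. Both sets include windows without a gene, so they do not give the share among gene windows. The nearest listed peak of these lists within 20 kb was an SMRC1 peak 16.5 kb upstream (110455246 to 110455615) with a fold of 3.14 and a −log10 q of 3.45. Absence from the lists does not show absence of binding, since the lists are limited by depth and by their threshold.

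FOXO1 and FOXO3, the forkhead factors that insulin inactivates, each had 5 SMRC1 peaks. At the FOXO1 start on chromosome 13 there were 2, with summits 0.397 and 1.90 kb from the rounded start (41240047 to 41240993 and 41238586 to 41239350). They had 57 and 53 fragments over a background of 9 and 9.05, with −log10 q of 13.96 and 11.9. The highest-ranked FOXO1 peak lay 103 kb from the start in the 3′ part of the gene (41137351 to 41139268), with a fold of 6.78, a −log10 q of 29.1 and 81 fragments over 8.42. By contrast, 2 other SMRC1 peaks in or just beyond that part were near the bottom of the list, at the 5.02nd and 12.04th percentile. The 1 NFIC peak (41246548 to 41247027) was 5.80 kb upstream of the start, at the 4.39th percentile of its list with 19 fragments over 5, and did not overlap SMRC1. No SATB1 peak was listed at FOXO1.

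At FOXO3 on chromosome 6 the leading peak lay upstream of the start and carried both SMRC1 and SATB1. The SMRC1 peak (108878883 to 108880090, summit 1.41 kb before the start) had a fold of 6.56, a −log10 q of 28.2 and 81 fragments over 8.74. The SATB1 peak in it (108878931 to 108879241, summit 1.98 kb before the start) was the highest-ranked of the 3 SATB1 members, with a fold of 4.12, a −log10 q of 7.65 and 32 fragments over 7.02. A weaker SMRC1 peak stood 0.887 kb from the rounded start (108881609 to 108882334; fold 2.75, −log10 q 6.52), where the background was higher, at 16 fragments. NFIC was absent from the FOXO3 start and had 3 peaks 6.07 to 35.1 kb inside the gene. The first of them (108886747 to 108887321; −log10 q 7.55) overlapped an SMRC1 peak, and the other 2 had 19 and 15 fragments over backgrounds of 3.08 and 2.49. RefSeq lists 4 FOXO3 starts and 2 of TXNIP, and distances here are from the 5′ end of the gene as the rule gives it.

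**Figure D2:**
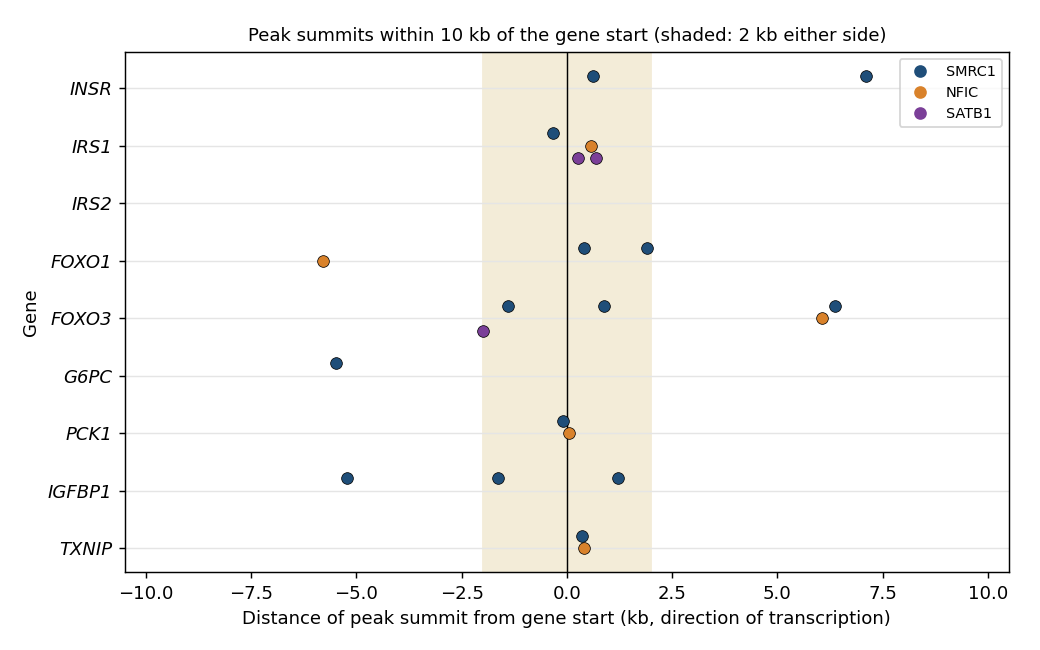
Peak summits within 10 kb of each gene start, in kb along the direction of transcription, coloured by antibody, with the 2 kb on either side of the start shaded. SMRC1 summits fall in the shaded zone at 7 genes, NFIC summits at IRS1, PCK1 and TXNIP, SATB1 summits at IRS1 and FOXO3, and G6PC and IRS2 have none there.

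The 4 remaining genes, G6PC, PCK1, IGFBP1 and TXNIP, are short, and every summit in their windows lay within 6 kb of the start. PCK1, the rate-limiting enzyme gene of gluconeogenesis, had the NFIC peak with the highest fold of the 11. This peak (chromosome 20, 56135317 to 56136339) had a fold of 8.48, a −log10 q of 26.4 and 47 fragments over 4.62, with its summit within the 1 kb rounding of the gene start. The SMRC1 peak there (56135449 to 56136323) had a fold of 5.80, a −log10 q of 16.2 and 51 fragments over 6, with its summit 145 bp from the NFIC summit. Among the 7 overlapping pairs of the 2 proteins, PCK1 was the only one where NFIC ranked higher in its own list (85.1st percentile) than SMRC1 in its own (74.3rd). The TXNIP start on chromosome 1 also had both, but with the opposite ranking. Its SMRC1 peak (145437858 to 145438713) had a fold of 5.17, a −log10 q of 14.8 and 52 fragments over 7. The NFIC peak in it (145438008 to 145438463) was the weakest NFIC member, with a fold of 2.65, a −log10 q of 2.25 and 23 fragments over 8, at the 1.59th percentile.

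IGFBP1 and G6PC had SMRC1 peaks alone. Of the 3 at IGFBP1 on chromosome 7, the farthest from the start was the strongest: 5.23 kb upstream (45921381 to 45922189), with a fold of 6.24, a −log10 q of 27.5 and 82 fragments over 9.36. The 2 nearer peaks (45924904 to 45925602 and 45927707 to 45928526) had folds of 3.06 and 3.39 and −log10 q of 6.66 and 6.10. As many as 3 SMRC1 peaks occurred in 2.19% of genome windows of 27 kb, and in 3.23% of those in light-staining bands. The annotation also places CCDC201 within 10 kb of IGFBP1. G6PC, the final enzyme of glucose release, had 1 SMRC1 peak, 5.48 kb upstream on chromosome 17 (41046224 to 41046793), with a fold of 5.21, a −log10 q of 17.9 and 62 fragments over 8.42. A stronger one lay 13.2 kb upstream, outside the window (41038345 to 41039087; fold 6.91, −log10 q 22.96). LINC00671 and RNU6-287P are annotated within 10 kb of G6PC, so these peaks too are named by position and not assigned to a gene. In G6PC and IGFBP1 alike, the strongest SMRC1 peak of the window was over 5 kb before the start.

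Within these windows, gene starts took a larger share of the peaks than of the sequence. The share of each whole list near gene starts was not taken, so whether this is particular to the 9 loci was not tested. The zones of 2 kb on either side of the 9 starts made up 4.90% of the windows and held 10 of 26 SMRC1 summits (38.5%, 20.2 to 59.4), 3 of 11 NFIC summits (27.3%, 6.02 to 61.0) and 3 of 3 SATB1 summits. SMRC1 summits were 12.1 times as dense there as in the rest of the windows (278 against 22.9 per Mb), and NFIC summits 7.27 times (83.3 against 11.5). SMRC1 peaks at starts were 866 bp wide at the median and those elsewhere 606 bp, with median percentiles of 70.4 and 50.3. The gene positions are rounded to 1 kb, which limits these distances. Within 1 kb of the start, a limit chosen after seeing the data, 6 SMRC1, 3 NFIC and 2 SATB1 summits remained. Those 2 SATB1 summits are both at IRS1, and the one at FOXO3, 1.98 kb from the rounded start, is close to the 2 kb limit. Besides the start zones, 13 SMRC1 summits were intragenic, 2 upstream and 1 downstream, and of the NFIC summits 7 were intragenic and 1 upstream.

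**Figure D3:**
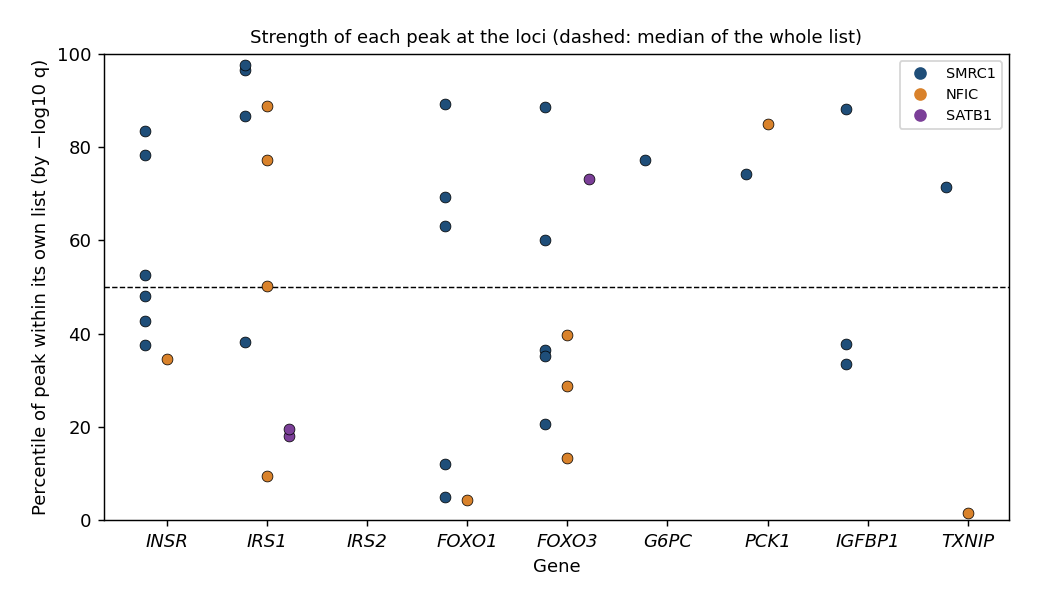
Percentile of each of the 40 peaks within its own list by −log10 q, by gene and antibody, with the dashed line at the median of a whole list. SMRC1 peaks spread from the 5.02nd to the 97.6th percentile with IRS1 at the top, and 7 of 11 NFIC peaks and 2 of 3 SATB1 peaks lie below the line.

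The loci held peaks of low and high rank, and their share of strong peaks was not separable from that of the lists. A −log10 q of at least 10 was reached by 14 of 26 SMRC1 members (53.8%, 33.4 to 73.4) against 43.7% of the list, by 3 of 11 NFIC members (27.3%, 6.02 to 61.0) against 46.3%, and by 0 of 3 SATB1 members (upper bound 70.8%) against 13.8%. Each interval includes the share of its list. The median percentile was 61.6 for SMRC1, 34.5 for NFIC and 19.6 for SATB1. Without the IRS1 locus, a setting chosen after seeing the data, the medians were 56.3 and 28.7 for SMRC1 and NFIC, and the single SATB1 peak left, at FOXO3, stood at 73.2. Summit fragments ran from 21 to 163 for SMRC1 (median 52, list median 45), from 15 to 92 for NFIC (31, list 32) and from 29 to 34 for SATB1 (32, list 32).

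The lists overlapped at IRS1, FOXO3, PCK1 and TXNIP, and in each count below with an interval that interval includes the share of the whole list. Of the NFIC members, 7 of 11 overlapped an SMRC1 peak (63.6%, 30.8 to 89.1), against 51.9% of all NFIC peaks. Seen from SMRC1, 7 of 26 members overlapped an NFIC peak (26.9%, 11.6 to 47.8), against 23.7% of the list, and 2 of 26 a SATB1 peak (7.69%, 0.946 to 25.1), against 8.61%. All 3 SATB1 members overlapped SMRC1, against 78.5% of the list, and 2 of 3 an NFIC peak (66.7%, 9.43 to 99.2), against 27.4%, both of them the same NFIC peak at IRS1. Of the NFIC members, 1 of 11 overlapped SATB1 (9.09%, 0.230 to 41.3), against 6.52%. The IRS1 locus supplied 4 of the 7 shared NFIC peaks, and without it 42.9% of NFIC members were at SMRC1 sites, 13.6% of SMRC1 members at NFIC sites and 4.55% at SATB1 sites. Counting summits within 200 bp in place of overlap, 36.4% of NFIC members were at SMRC1 sites and 15.4% of SMRC1 members at NFIC sites. No share of the whole lists was taken by that count. The 7 shared pairs came from 4 genes, IRS1, FOXO3, PCK1 and TXNIP, and their summits lay 45 to 900 bp apart with a median of 169 bp.

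The 4 NFIC members without SMRC1, at INSR, FOXO1 and FOXO3, had 15 to 19 fragments. They stood at the 4.39th to 34.5th percentile by −log10 q. Ranked by fold they stood at the 16.3rd to 66.9th percentile, and the 7 shared NFIC peaks at the 4.18th to 87.3rd. By fold the 4 were thus not set apart as the lower peaks. The summits of these 4 lay 5.85 to 18.6 kb from the nearest SMRC1 summit. The control background at these 4 was 1.85 to 5 fragments, with a median of 2.79, against a median of 10.2 at the 7 shared NFIC peaks. The lists may rest on a common control, and the part of the background in the sharing was not tested. Among SMRC1 members, 18 of 26 (69.2%) overlapped neither other list, against 70.7% of all SMRC1 peaks, among them all SMRC1 peaks of INSR, FOXO1, G6PC and IGFBP1.

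**Figure D4:**
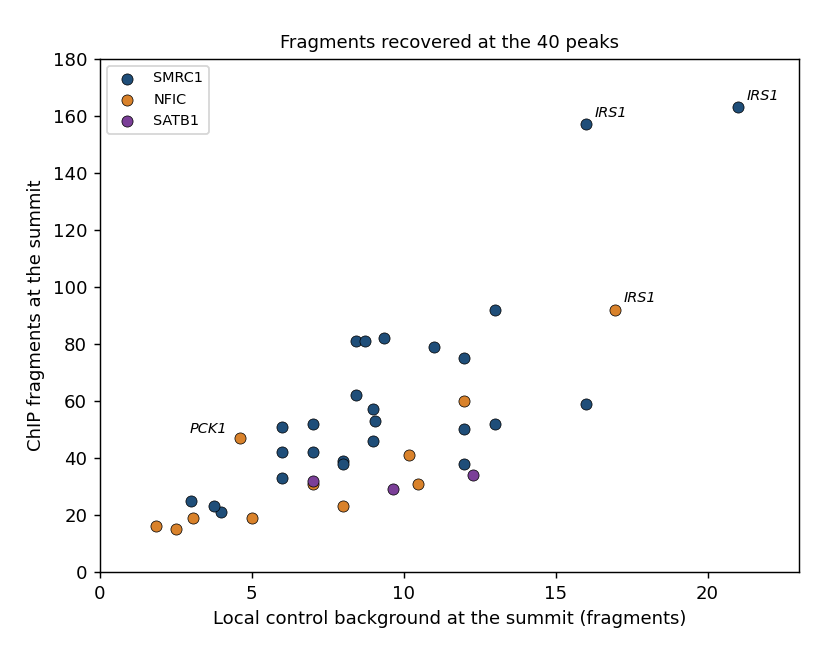
ChIP fragments at the summit (vertical axis) against the local control background (horizontal axis), both recovered from the deposited fold and p-value, for the 40 peaks coloured by antibody. SMRC1 fragments are not scaled down to the control, and the SMRC1 library was 1.29 times as deep. The pair of SMRC1 peaks with 157 and 163 fragments and the NFIC peak with 92 are at IRS1, and the NFIC peak of PCK1 has 47 fragments over a background of 4.62.

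In a list of 25 other genes of the pathway, peaks of SMRC1 were about as widespread. SMRC1 peaks lay in the windows of 22 of the 25 and at the start of 14, compared with 8 and 7 of the 9 member genes. NFIC peaks lay in the windows of 13 and at the start of 5 (member genes: 6 and 3), and SATB1 peaks in 7 and at 4 (member genes: 2 and 2). The share of genome windows with a peak is not given for the lengths of these 25 windows. Peaks per Mb were 30.6 for SMRC1, 9.04 for NFIC and 3.45 for SATB1 in this list, and 35.4, 14.99 and 4.09 at the member loci. Within the list, 11 genes of glucose metabolism had 42.1 SMRC1 peaks per Mb and 14 of signalling 26.4, in windows that add up to 0.618 and 1.704 Mb. Among the member genes the values were 53.6 per Mb at G6PC, PCK1, IGFBP1 and TXNIP together and 32.2 at the receptor, adaptors and forkhead factors together. These differences were not tested, and G6PC, PCK1, IGFBP1 and TXNIP have the shorter windows, in which the start zone weighs more. PCK2, the mitochondrial counterpart of PCK1, was the 1 gene of the 25 with peaks of all 3 lists at its start, at the 59.1st percentile for SMRC1, the 54.0th for NFIC and the 12.9th for SATB1. FOXO4, a further forkhead factor, had no peak in any list in its window of 28 kb. Of genome windows of 27 kb, 82.9% held no SMRC1 peak, 90% no NFIC peak and 97.4% no SATB1 peak. As at IRS2, absence from the lists does not show absence of binding.

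At the edge of the rule, the outermost flanking members were the NFIC peak of FOXO1 and the SMRC1 peaks upstream of G6PC and IGFBP1, 5.80, 5.48 and 5.23 kb from the start. Between 10 and 20 kb from the genes lay 6 further peaks, 5 of SMRC1 and 1 of NFIC. They included the SMRC1 peaks named above at G6PC and IRS2, an SMRC1 peak beyond the 3′ end of FOXO1 with a fold of 5.51 and a −log10 q of 26.98, and an SMRC1 peak 13.6 kb upstream of PCK1 with a fold of 3.14.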

How the data were processed

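ChIP-seq of HepG2 chromatin gave 1 peak list for each of 3 antibodies. The submitters' processing notes name MACS2 2.1.1, Bowtie 1.1.2, deepTools and SAMtools with build hg19. For settings, and for which control went with each peak call, the answer is not given in the sources used here. The authors' peak caller wrote, for every peak, a fold (a ratio of summit over background) and, on the −log10 scale, p and q. The score column as deposited equals 10 times the latter, floored, in all but 2 SMRC1 peaks. Lists began at a −log10 q of 1.01 (SMRC1), 1.02 (NFIC) and 1.04 (SATB1). Total read numbers are unknown.

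Summit fragments and background were recovered by solving the caller's expressions for fold and p-value together, with a pseudocount of 1 and whole ChIP fragments, in 29440 SMRC1, 13640 NFIC and 3294 SATB1 peaks. Background is in control fragments, for SATB1 scaled down to the depth of that library. On at least 1868 simulated peaks per scale, 100% of fragment numbers were recovered. Those peaks were made with the same expressions and a known scale. The simulation thus checks the solving only, and not the expressions or the scale estimated for SMRC1. In 284 SMRC1 peaks there was more than 1 solution, and the closest was taken. Relative to the control the ChIP depth was 1.29 for SMRC1 and 1.01 for NFIC. Printed fragments are not divided by this depth, whereas the fold is taken after scaling.

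Percentiles are ranks within a list. Genome windows are non-overlapping tiles of a locus's length. Strands of member genes and the hg19 positions of the pathway genes are textbook positions. Of 27 pathway genes, 25 were kept because their length was within 5% or 3 kb of RefSeq's (GRCh38.p14), and 1 result on a gene of that list is not reported here. Peaks printed were, for each gene and list, the one of highest −log10 q, those within 2 kb of the start, all SATB1 peaks and sites of all 3 lists, while further peaks printed, at INSR, IRS1, FOXO1, FOXO3 and outside the windows, were picked with their values in view. Members and gene lists were chosen with earlier results of these data known. Computation used scipy 1.17.1, pandas 2.3.3, numpy 2.4.6 and matplotlib 3.10.9 under Python 3.11.15, with chromosome lengths from GenomeInfoDb 1.38.1 and bands from circlize 0.4.16.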

Additional observations from a re-analysis of the deposited data

How the results depend on the processing

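Of 60 alternative values, 48 stayed within the 95% interval of the reported share, ratio or median, or within 1.5 times of the reported count. With so few NFIC and SATB1 members these intervals are wide, so staying within them does not show stability. The SATB1 median percentile, for example, went from 19.6 to 73.2 without the IRS1 locus and was counted as staying. With only peaks of −log10 q of at least 10, the loci held 14 SMRC1, 3 NFIC and 0 SATB1 peaks, and the SATB1 density ratio was 0. At that limit in both lists, 100% of the 3 NFIC members were at SMRC1 sites and 0% of SMRC1 members at SATB1 sites. No SATB1 member was left for its share. Shares of the whole lists at that limit, or by summits within 200 bp, were not taken. The member shares under these 2 settings are therefore not read as traits of the loci. With summits within 200 bp in place of overlap, 0% of SATB1 members were at SMRC1 sites and 0% of SMRC1 members at SATB1 sites, while the share of NFIC members at SMRC1 sites was 36.4% and of SMRC1 members at NFIC sites 15.4%. Ranked by fold, the SATB1 median percentile was 16.4. Without the IRS1 locus, chosen after seeing the data, 7 NFIC and 1 SATB1 peaks were left, with density ratios of 2.46 and 1.46, and 13.6% of SMRC1 members were at NFIC sites and 4.55% at SATB1 sites. Within 1 kb of the start, likewise chosen afterwards, 6 SMRC1, 3 NFIC and 2 SATB1 summits remained. Flanks of 5 or 20 kb moved none of the counts of peaks beyond 1.5 times. With 1 library per antibody no result has a replicate check, and 11 NFIC and 3 SATB1 members limit every share and median taken over them.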

Other observations

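IGF1R, the receptor of insulin-like growth factor and a relative of INSR, had 11 SMRC1 peaks and 4 NFIC peaks in a window of 335 kb, the most of any of the 25 pathway genes and also the longest window, with its highest SMRC1 peak at the 97.7th percentile. SLC2A2, the glucose transporter of hepatocytes, had 5 SMRC1, 3 NFIC and 1 SATB1 peaks in 51 kb, with the highest SMRC1 peak at the 96.6th percentile and the highest NFIC peak at the 82.0th. CRTC2, a coactivator of CREB at gluconeogenic genes, had 2 NFIC peaks, of which the higher stood at the 95.1st percentile, above every NFIC member of the 9 loci. These 3 genes were chosen after their values were seen, and no test of them was made.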
